A study of Mus musculus with 6 samples.

Results

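Genes that make the building blocks of DNA and RNA were mostly higher in Tregs lacking HDAC11. The genes described here encode enzymes that make, recycle and break down purine and pyrimidine nucleotides, make deoxynucleotides, and carry one-carbon units on folate. They were found by gene symbol from a list of 39 genes. Of these, 34 had at least 1 probe set annotated to that gene alone, among 12393 genes covered in this way, and their 73 probe sets are part of 22626 that were tested. Pfas, Atic, Gmps, Impdh2 and Mthfd1l, the remaining 5, had no such probe set in the annotation used and were not analysed here.

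The RNA came from CD4+CD25+ Tregs separated with magnetic beads, and 6 Affymetrix Mouse430A arrays were compared. The 3 arrays of the WT group came from wild-type C57BL6 mice, labelled without a Cre allele. The 3 arrays of the HDAC11-/- group came from fl-HDAC11/Foxp3cre mice on the C57BL/6 background, in which a Cre recombinase expressed from the Foxp3 locus deletes floxed Hdac11 in cells that express Foxp3. Mice were 6 to 8 weeks old, and no treatment is named. Since the WT group is not labelled as carrying Cre, the deletion and the Cre allele cannot be told apart. Each array is labelled as its own sample, without saying from how many mice, so a p-value here reflects nothing beyond the spread among these samples, which may be technical.

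Cells build pyrimidine and purine rings step by step from amino acids, phosphoribosyl pyrophosphate and one-carbon units, or recover finished bases and nucleosides by salvage. Ribonucleotide reductase then turns ribonucleotides into deoxynucleotides, and thymidylate is made either from deoxyuridylate with a folate-bound carbon or from thymidine by a kinase. Lymphocytes raise many of these enzymes when they leave quiescence and enter S phase, and they are unusually sensitive to loss of purine salvage and breakdown enzymes such as adenosine deaminase. The genes were therefore taken in 6 branches, covering deoxynucleotides and thymidylate, pyrimidine ribonucleotides, purine synthesis, purine salvage and breakdown, folate one-carbon units, and nucleoside diphosphate kinases.

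All levels are RMA values on the log2 scale, and a log2 fold change is the HDAC11-/- mean minus the WT mean. Where a gene had several probe sets, the one with the highest mean level stood for it. A gene was called when its Benjamini-Hochberg adjusted p from limma lay under 0.05 and its difference reached 1.5-fold. Of the 34 genes, 8 were called higher and 1 lower, where 3.46% of all genes were called higher and 3.72% lower. Without the fold threshold, 26 were higher, 3 lower and 5 did not pass the adjusted p, against 22.9% of all genes higher and 23.2% lower. By SAM, the test of the methods, 22 passed as higher and 2 as lower without a fold threshold, against 17.1% and 19.8% of all genes. The HDAC11-/- arrays lay wholly above the WT arrays for 27 of the 34 genes and wholly below for 3, against 28.2% and 29.6% of all genes. The median log2 fold change was 0.31, and it was -0.04 over all genes.

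The members are mostly bright, since 33 of the 34 lay above the median level of all genes. None was as dim as the bacterial control probe sets in both genotypes, while 3338 of all genes were. Among the 9055 genes outside that range, 4.65% were called higher and 4.78% lower, and 30.5% were higher and 25.6% lower at the adjusted p alone. The whole scale matters for small differences. When the arrays were scaled on 12 measured reference genes, the median over all genes moved from -0.04 to -0.12 and the median of the members to 0.23. At the adjusted p, 23 members were then higher and 3 lower, against 17.1% and 33.9% of all genes. Of the 12 reference genes, 3 were themselves higher and none lower at the adjusted p before scaling, against 22.9% and 23.2% of all genes. Pgk1 was the farthest at 0.49. These counts use the brightest probe sets, and dimmer ones of the reference genes passed in both directions. On the bacterial controls, 26 members were higher and 3 lower, against 24% and 20.1% of all genes.

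**Figure D1:**
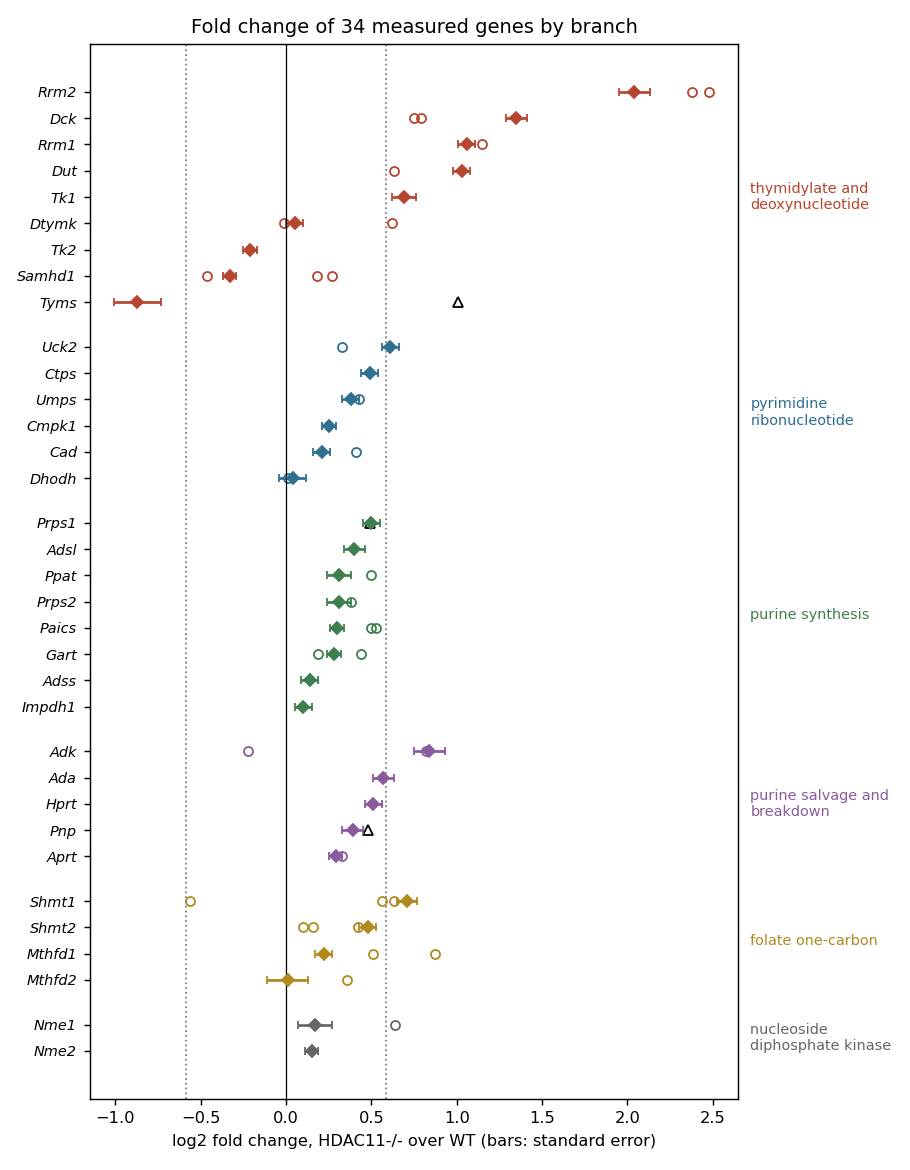
Differences in log2 level (HDAC11-/- minus WT, with 3 arrays in each) of the 34 measured genes in 6 branches, with diamonds and standard error bars for its brightest probe set, open circles for other probe sets outside the range of the bacterial controls, and open triangles for probe sets annotated to the gene and a related sequence. Dotted lines mark 1.5-fold. Rrm2 stands farthest to the right at 2.04, the purine synthesis genes lie between 0.10 and 0.50, and the brightest probe set and the triangle of Tyms lie on opposite sides of 0.

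The branch of deoxynucleotides and thymidylate held the largest differences and the widest spread. Of its 9 genes, 5 were called higher (Rrm2, Dck, Rrm1, Dut and Tk1), Tyms was called lower in a dim probe set, Tk2 and Samhd1 were lower by less than 1.5-fold, and Dtymk did not pass in its brightest probe set. The median was 0.69, and values ran from -0.87 to 2.04.

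Rrm2 encodes the small subunit of ribonucleotide reductase, made in S phase and destroyed after it. Its level was 8.59, 8.44 and 8.26 in WT, and in HDAC11-/- Tregs it reached 10.46, 10.50 and 10.43. The log2 fold change was 2.04 (SE 0.09, adjusted p = 1.53e-05 from limma), a 4.10-fold difference. No HDAC11-/- array came near the WT range. The other probe sets of Rrm2 gave 2.48 and 2.38. Rrm1, the large subunit that binds the substrate, was at 9.05, 9.17 and 9.07 in WT and at 10.14, 10.16 and 10.15 in HDAC11-/- Tregs. It rose by 1.06 in log2 terms (SE 0.05, adjusted p = 2.28e-05), and its second probe set gave 1.15. Both subunits were thus higher on every HDAC11-/- array, the small one by the larger factor. Rrm2b, the alternative small subunit used outside S phase and no member of the list, had a log2 fold change of 0.15 (adjusted p = 0.0367).

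The promoters of Rrm2, Dck and Rrm1, the genes with the largest rises, and of Tyms, the gene called lower, show which of the searched motifs lie near their starts. Sequences are from RefSeq on GRCm38.p6, 5′ to 3′ on the strand of the gene, from 250 bases before to 50 after the start. Rrm2 lies at chr12:24708004-24708303 on the plus strand, Dck at chr5:88764763-88765062 on the plus strand, Rrm1 at chr7:102441445-102441744 on the plus strand, and Tyms at chr5:30073576-30073875 on the minus strand. Capitals mark every match to a searched motif.
Rrm2: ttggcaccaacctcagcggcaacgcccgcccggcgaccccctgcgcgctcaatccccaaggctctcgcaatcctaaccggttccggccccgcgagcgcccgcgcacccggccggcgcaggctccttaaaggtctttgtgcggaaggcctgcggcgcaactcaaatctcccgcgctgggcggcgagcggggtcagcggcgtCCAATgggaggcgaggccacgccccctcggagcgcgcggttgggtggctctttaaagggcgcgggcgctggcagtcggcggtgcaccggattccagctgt
Dck: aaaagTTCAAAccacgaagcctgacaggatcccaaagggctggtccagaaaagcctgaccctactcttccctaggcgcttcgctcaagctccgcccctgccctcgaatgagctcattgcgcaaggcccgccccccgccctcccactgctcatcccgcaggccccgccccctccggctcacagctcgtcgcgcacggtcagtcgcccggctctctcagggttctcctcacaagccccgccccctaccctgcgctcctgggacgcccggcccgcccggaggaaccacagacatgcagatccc
Rrm1: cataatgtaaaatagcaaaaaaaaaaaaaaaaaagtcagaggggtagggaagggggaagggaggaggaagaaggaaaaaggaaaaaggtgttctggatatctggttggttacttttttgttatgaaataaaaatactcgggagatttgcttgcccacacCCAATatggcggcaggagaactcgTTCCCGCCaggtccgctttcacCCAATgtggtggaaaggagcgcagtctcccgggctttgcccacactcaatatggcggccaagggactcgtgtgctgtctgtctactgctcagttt
Tyms: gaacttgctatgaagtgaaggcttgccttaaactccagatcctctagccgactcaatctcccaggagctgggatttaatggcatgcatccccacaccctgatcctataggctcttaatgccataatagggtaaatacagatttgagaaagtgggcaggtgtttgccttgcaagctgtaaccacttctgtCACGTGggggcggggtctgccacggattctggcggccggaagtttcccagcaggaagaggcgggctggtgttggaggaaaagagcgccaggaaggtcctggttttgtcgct

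The motifs were searched on both strands. They were E2F-type (TTTCGCGC, TTTGGCGC, TTCCCGCC or TTGGCGGG, where a match to the third can overlap one to the fourth on the opposite strand), the E-box CACGTG, the CCAAT box CCAAT and the CHR-type element TTTGAA. Rrm2 has a CCAAT match, Rrm1 has an E2F-type match and CCAAT matches at both sides of it, Dck has a CHR-type match far from the start, and Tyms has an E-box. Promoters were in the table for 33 of the 34 genes, all but Dhodh. An E2F-type match was found in 4 of the 33 (Rrm1, Prps1, Ppat and Mthfd1), or 12.1%, and in 6.77% of 9888 array genes with a promoter. A CCAAT match was found in 13 of the 33 (39.4%, against 42.3% of the array genes), a CHR-type match in 6 (18.2% against 15.4%) and an E-box in 4 (12.1% against 10.8%). Of the 8 genes called higher, 5 hold a CCAAT match, 2 a CHR-type match, 1 an E2F-type match and none an E-box. Dut, which followed Rrm1 in size at 1.03, and Tk1 hold no match, nor does Samhd1, and their promoters are not printed. The printed promoters all hold a match and are therefore no sample of the members. These are matches of letters only, and a promoter without one shows only that those letters are not in this window.

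Dck encodes deoxycytidine kinase, which starts the salvage of deoxycytidine and purine deoxynucleosides. It was at 8.74, 8.87 and 8.81 on the WT and at 10.08, 10.20 and 10.18 on the HDAC11-/- arrays, differing by 1.35 in log2 terms (SE 0.06, adjusted p = 1.64e-05). Its other probe sets were called higher as well, at 0.79 and 0.75. Tk1, the cytosolic thymidine kinase that accumulates in S phase, was at 7.85, 7.62 and 7.73 in WT and at 8.42, 8.48 and 8.38 in HDAC11-/- Tregs (log2 fold change 0.69, SE 0.07, adjusted p = 0.000467). Tk2, the mitochondrial enzyme for the same substrate, went the other way. It fell from 9.46 ± 0.04 (SD, n = 3) to 9.25 ± 0.01 (SD, n = 3), by 0.21 on the log2 scale (adjusted p = 0.00783 from limma, q = 0.0589 by SAM), short of the fold threshold. Both cytosolic salvage kinases were thus higher with no overlap of arrays, and the mitochondrial one slightly lower.

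Dut encodes the dUTPase, which keeps uracil out of DNA and supplies deoxyuridylate for thymidylate synthesis. It was at 9.39, 9.42 and 9.31 in WT and at 10.40, 10.42 and 10.40 in HDAC11-/- Tregs, differing by 1.03 in log2 terms (SE 0.05, adjusted p = 2.28e-05). Its dimmer probe set was also called, at 0.63. Samhd1, which hydrolyses deoxynucleoside triphosphates and so lowers their pool, was one of the few members that fell. It was at 12.21, 12.20 and 12.20 in WT and at 11.87, 11.90 and 11.85 in HDAC11-/- Tregs, a log2 value that fell by 0.33 (SE 0.04, adjusted p = 0.00113). The second brightest probe set fell by 0.46, while dimmer ones gave 0.27 (adjusted p = 0.00385) and 0.18 (adjusted p = 0.0191), so the direction of Samhd1 depends on the probe set.

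**Figure D2:**
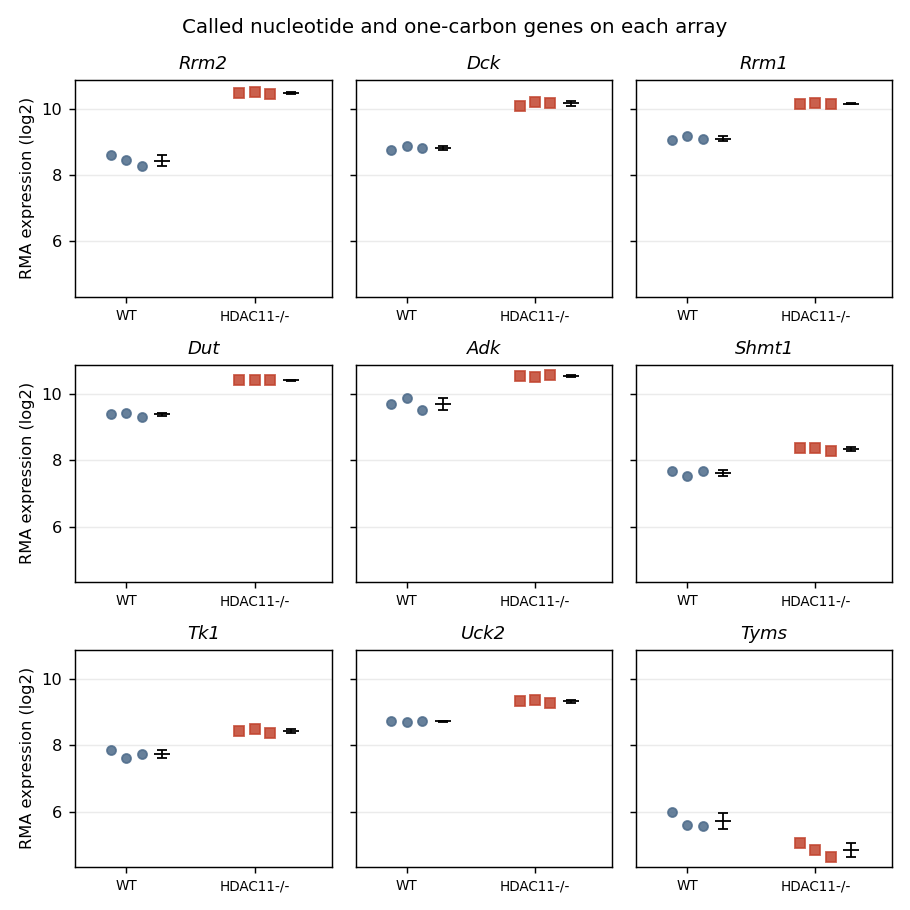
RMA expression (log2) of the 9 called genes on each array, with circles for WT, squares for HDAC11-/- and black bars for the mean and SD of 3 arrays. In every gene the arrays of the genotypes are apart, with HDAC11-/- above WT from Rrm2, at 4.10-fold, to Uck2, at 1.52-fold, and below it for Tyms, whose HDAC11-/- arrays are as dim as the bacterial controls.

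Tyms, which encodes thymidylate synthase, cannot be given 1 direction on these arrays. Its brightest probe set of 1 symbol was at 5.98, 5.60 and 5.57 in WT and at 5.06, 4.84 and 4.64 in HDAC11-/- Tregs (log2 fold change -0.87, SE 0.14, adjusted p = 0.00317). None of the HDAC11-/- arrays exceeded its own highest bacterial control, so this probe set was at least 1.49-fold lower. The call of Tyms as lower used the deposited values, and this bound lies just under the 1.5-fold threshold. Its other probe sets of 1 symbol lay within that range in both genotypes, at 0.05 and -0.04. A further probe set, annotated to Tyms and its pseudogene Tyms-ps together and therefore outside the rule, was much brighter and went up. It was at 7.95, 8.36 and 8.08 in WT and at 9.11, 9.17 and 9.12 in HDAC11-/- Tregs, differing by 1.01 in log2 terms (SE 0.10, adjusted p = 0.000473). With that probe set in place of the dim one, a choice made after its value was seen, the counts for the whole list were 9 higher and none lower by the same call, and the median of the branch rose from 0.69 to 1.01. The genes cannot be told apart in the shared probe set.

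Dtymk, thymidylate kinase, also had probe sets that differed. The brightest was at 10.34, 10.42 and 10.42 in WT and at 10.43, 10.46 and 10.43 in HDAC11-/- Tregs (log2 fold change 0.05, adjusted p = 0.428) and the next gave -0.01 (adjusted p = 0.842). The dimmest was at 8.38, 8.46 and 8.41 in WT and at 9.02, 9.06 and 9.04 in HDAC11-/- Tregs, and was called at 0.62 (adjusted p = 0.000126). A rise of Dtymk was therefore seen in 1 of 3 probe sets.

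**Figure D3:**
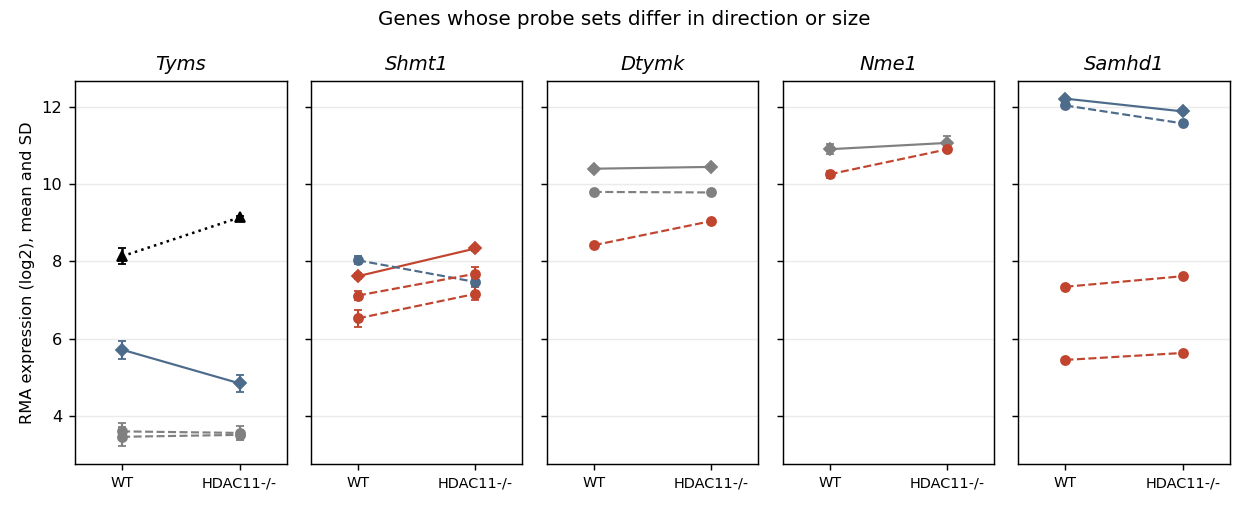
RMA expression (log2, mean and SD of 3 arrays per genotype) of all probe sets of 5 genes, with diamonds and solid lines for the brightest probe set of 1 symbol, circles and dashed lines for the others, and a black triangle and dotted line for the probe set shared by Tyms and Tyms-ps. Red is higher and blue lower in HDAC11-/- at an adjusted p under 0.05, and grey did not pass. The lines of Tyms, Shmt1 and Samhd1 run in both directions, while Dtymk and Nme1 each have 1 probe set that was called higher and at least 1 that did not pass.

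In the branch of pyrimidine ribonucleotides, 5 of 6 genes were higher at the adjusted p, 1 of them called, and none was lower. The median log2 fold change was 0.31. Uck2, the uridine-cytidine kinase of salvage, was at 8.73, 8.71 and 8.72 in WT and at 9.34, 9.37 and 9.28 in HDAC11-/- Tregs, differing by 0.61 in log2 terms (SE 0.05, adjusted p = 0.000146). It lies close to the fold threshold, its second probe set gave 0.33, and its call was lost at 0.53 when arrays were scaled on the reference genes. Ctps, which makes CTP from UTP, went from 8.82 ± 0.06 (SD, n = 3) to 9.31 ± 0.04 (SD, n = 3) (log2 fold change 0.49, adjusted p = 0.000539). Umps, which closes the de novo pathway by making UMP, went from 8.24 ± 0.07 (SD, n = 3) to 8.62 ± 0.01 (SD, n = 3) (0.38, adjusted p = 0.00136). Cmpk1, the kinase of UMP and CMP, had a log2 fold change of 0.25 (adjusted p = 0.00404), and Cad, which carries the first steps of the pathway on 1 protein, 0.21 (adjusted p = 0.02, but q = 0.108 by SAM).

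The remaining step of the de novo pathway gave no difference that passed. Dhodh, the mitochondrial dehydrogenase that acts between Cad and Umps, was at 8.09, 8.23 and 7.98 in WT and at 8.26, 8.06 and 8.12 in HDAC11-/- Tregs. The arrays overlapped, and the difference was 0.04 (SE 0.08, adjusted p = 0.690) in 1 probe set and 0.01 (adjusted p = 0.939) in the other.

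The purine synthesis genes showed small and similar differences. Of 8 measured genes 7 were higher at the adjusted p, none was called, and all lay between 0.10 and 0.50 with a median of 0.30. Prps1 and Prps2 make phosphoribosyl pyrophosphate, the starting sugar of the pathway. The log2 fold change of Prps1 was 0.50, to a level of 10.49 ± 0.02 (SD, n = 3) in HDAC11-/- Tregs (adjusted p = 0.000492), and a probe set shared with Prps1l3 gave 0.49. Prps2 was at 0.31 (adjusted p = 0.0105).

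Along the ring itself, Ppat, the committing enzyme, was at 0.31 (adjusted p = 0.0136). Gart, which carries 3 steps, was at 0.28 (adjusted p = 0.00251). Paics, which follows it, went from 11.29 ± 0.01 (SD, n = 3) to 11.58 ± 0.01 (SD, n = 3) (0.30, adjusted p = 0.00155), and Adsl, used both in the ring and on the way to AMP, from 9.03 ± 0.08 (SD, n = 3) to 9.43 ± 0.04 (SD, n = 3) (0.40, adjusted p = 0.00177). These differences are a fraction of those of the reductase but larger than the spread between arrays. Dimmer probe sets gave 0.50 for Ppat, 0.19 and 0.44 for Gart, and 0.50 and 0.53 for Paics.

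After the ring is closed at IMP, the path divides. Adss, the first step to AMP, had a log2 fold change of 0.14 (adjusted p = 0.0489), just past the threshold, which it missed by SAM (q = 0.233). Impdh1, an isoform of the first step to GMP, was at 9.26, 9.31 and 9.41 in WT and at 9.41, 9.41 and 9.44 in HDAC11-/- Tregs, at 0.10 (adjusted p = 0.193). Its arrays touched, and it was the only member of the branch that did not pass.

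All 5 genes of purine salvage and breakdown were higher at the adjusted p, 1 was called, and the median was 0.51. Adk, adenosine kinase, which turns adenosine back into AMP, was at 9.69, 9.88 and 9.51 in WT and at 10.53, 10.51 and 10.57 in HDAC11-/- Tregs, differing by 0.84 in log2 terms (SE 0.09, adjusted p = 0.000673). Its next probe set was called as well, at 0.82, and a dimmer one that did not pass was at -0.22 (adjusted p = 0.129). The dimmest was called at 0.80 (adjusted p = 0.000196 from limma), but was as dim as the bacterial controls in both genotypes. Ada, adenosine deaminase, which removes adenosine and deoxyadenosine, was at 7.21, 7.23 and 7.37 in WT and at 7.87, 7.84 and 7.81 in HDAC11-/- Tregs. It lay just short of the fold threshold at 0.57 (SE 0.06, adjusted p = 0.000480), and crossed it at 0.62 without WT replicate 3 and at 0.59 when arrays were scaled on the bacterial controls, which gave 9 members called higher. Enzymes that use adenosine in opposite ways were thus both higher.

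Hprt, which recovers hypoxanthine and guanine and is often used as a reference gene, went from 10.86 ± 0.05 (SD, n = 3) to 11.37 ± 0.01 (SD, n = 3), a log2 fold change of 0.51 (adjusted p = 0.000322). Its rise is larger than the spread in either genotype. Aprt, which recovers adenine, went from 10.67 ± 0.01 (SD, n = 3) to 10.96 ± 0.04 (SD, n = 3) (0.29, adjusted p = 0.00242). Pnp, purine nucleoside phosphorylase, whose loss depletes T cells, was at 0.39 (adjusted p = 0.00265), and a probe set shared with Pnp2 gave 0.48.

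Of 4 measured folate genes, 3 were higher at the adjusted p, 1 was called, and the median was 0.35. Shmt1 and Shmt2 are the cytosolic and mitochondrial enzymes that pass the one-carbon unit of serine to folate. Shmt1 was at 7.66, 7.52 and 7.67 in WT and at 8.36, 8.37 and 8.27 in HDAC11-/- Tregs in its brightest probe set, differing by 0.71 in log2 terms (SE 0.06, adjusted p = 0.000234). Other probe sets of Shmt1 gave 0.63 and 0.56, but a further one went from 7.98, 7.95 and 8.15 down to 7.46, 7.54 and 7.40, at -0.56 (adjusted p = 0.00105). In WT alone this last one was the brightest, and the call of Shmt1 is lost when it represents the gene. Shmt2 went from 9.52 ± 0.05 (SD, n = 3) to 10.01 ± 0.01 (SD, n = 3) (0.48, adjusted p = 0.000346), with dimmer probe sets from 0.10 to 0.42.

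Mthfd1, the cytosolic enzyme that interconverts one-carbon folates for purine synthesis, had a log2 fold change of 0.22 (adjusted p = 0.00775 from limma, q = 0.0589 by SAM) in its brightest probe set and 0.51 (adjusted p = 0.000521) in the next. Its dimmest was at 4.67, 5.03 and 4.93 in WT, as dim as the bacterial controls, and at 5.82, 5.52 and 5.89 in HDAC11-/- Tregs. It was called at 0.87 from the deposited values, but its bound, at least 1.27-fold higher, lies under the 1.5-fold threshold. Mthfd2, the mitochondrial enzyme induced in dividing cells, did not pass in its brightest probe set. It was at 9.47, 9.27 and 9.11 in WT and at 9.47, 9.23 and 9.17 in HDAC11-/- Tregs (0.01, SE 0.12, adjusted p = 0.966), while the other probe set gave 0.36 (adjusted p = 0.00140).

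Nme1 and Nme2 encode nucleoside diphosphate kinases, which add the last phosphate, and share much of their sequence, so their signals may not be independent. Nme2 went from 12.79 ± 0.02 (SD, n = 3) to 12.94 ± 0.03 (SD, n = 3), a log2 fold change of 0.15 (adjusted p = 0.0294, but q = 0.183 by SAM). The brightest probe set of Nme1 was at 10.85, 11.05 and 10.79 in WT and at 10.88, 11.09 and 11.21 in HDAC11-/- Tregs, and did not pass (0.17, adjusted p = 0.231). The other was at 10.35, 10.19 and 10.21 in WT and at 10.93, 10.90 and 10.85 in HDAC11-/- Tregs, and was called at 0.64 (adjusted p = 0.000312).

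Counted over probe sets, 55 of the 73 were higher and 5 lower at the adjusted p, and 20 were called higher and 1 lower. The share over all probe sets was not counted, and the shares given per gene are no measure for these counts. Of 22 members with more than 1 probe set, 13 had all probe sets outside the background range higher at the adjusted p, and Samhd1 and Shmt1 had probe sets past it in both directions. The share over all genes with more than 1 probe set was not counted either. By any probe set, 11 of the 34 genes were called higher and 1 lower, where 5.31% of all genes had a probe set called higher and 6.66% one called lower. The 3 added by this count are Dtymk, Mthfd1 and Nme1.

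Set side by side, the branch medians were 0.69 for deoxynucleotides and thymidylate, 0.51 for purine salvage and breakdown, 0.35 for folate, 0.31 for pyrimidine ribonucleotides, 0.30 for purine synthesis and 0.16 for the nucleoside diphosphate kinases. On single HDAC11-/- arrays, the median shift from the WT mean was 0.64 to 0.75 for the first branch, 0.50 to 0.52 for salvage and 0.29 to 0.33 for pyrimidine ribonucleotides. It was 0.30 on each array for purine synthesis and 0.34 to 0.36 for folate. The pyrimidine, purine synthesis and folate branches thus lay close together. The kinases, with 2 genes, overlapped the WT arrays, at 0.08 to 0.22 against -0.06 to 0.08. The difference between branches was not tested. The 4 genes past 2-fold, Rrm2, Dck, Rrm1 and Dut, all belong to the deoxynucleotide branch, which also holds all 3 members that were lower at the adjusted p.

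**Figure D4:**
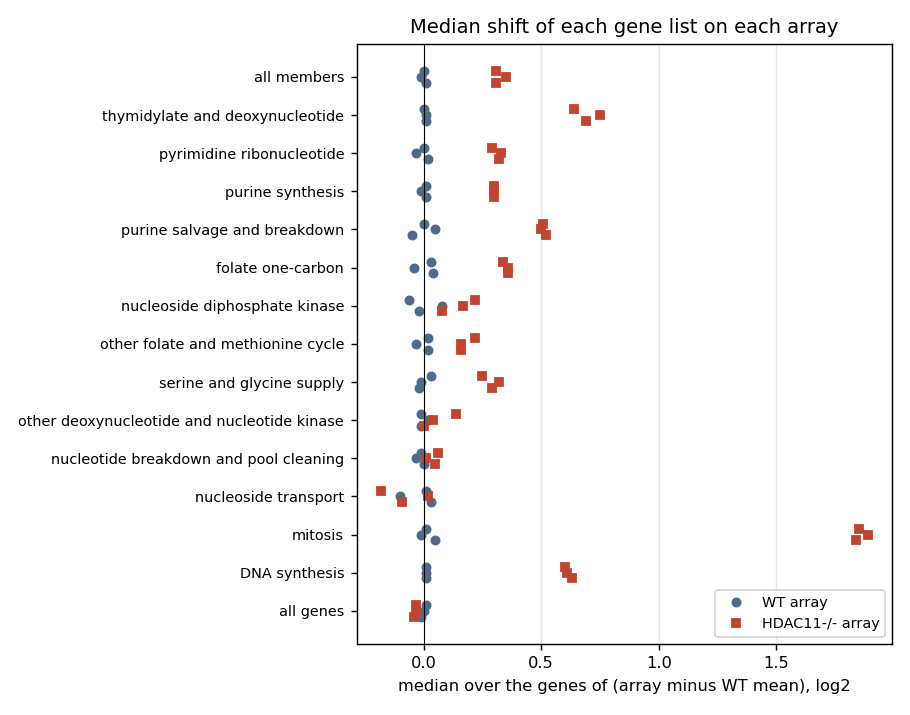
Median over the genes of a list of the level on an array minus the WT mean (log2), for all members, the 6 branches, 5 lists of other pathway genes, genes of mitosis and DNA synthesis, and all genes, with circles for WT and squares for HDAC11-/- arrays. The branch of deoxynucleotides and thymidylate reaches 0.64 to 0.75, near the 0.60 to 0.63 of DNA synthesis genes, mitosis reaches 1.84 to 1.89, and all genes lie at -0.04 to -0.03.

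The lists of other genes of the same pathways were taken by function. Of 54 measured, 5 were called higher and 1 lower, where 3.46% and 3.72% of all genes were. At the adjusted p, 21 (38.9%) were higher and 7 (13%) lower, against 22.9% and 23.2% of all genes. The median log2 fold change was 0.08. Among genes that supply serine and glycine, 5 of 6 were higher at the adjusted p, and the median was 0.28. Psat1, an aminotransferase of serine synthesis, was called at 0.59 (adjusted p = 0.000258), and Phgdh, the first enzyme of that route, was at 0.25 (adjusted p = 0.00434). Of 9 genes of the folate and methionine cycles, 5 were higher and 1 lower, with Ahcy, which clears S-adenosylhomocysteine, called at 0.65 (adjusted p = 0.000133).

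Of 16 further deoxynucleotide enzymes and nucleotide kinases, 7 were higher and 2 lower, with a median of 0.04. Dctpp1, which removes unusual deoxycytidine triphosphates, was called at 0.61 (adjusted p = 0.000104). So was Cmpk2, a mitochondrial nucleotide kinase induced by interferon, at 0.61 (adjusted p = 0.000471), while its dimmer probe set gave -0.16 (adjusted p = 0.103 from limma). Ctps2, the second CTP synthase, fell by 0.34 (adjusted p = 0.000932), opposite to Ctps.

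Enzymes of nucleotide breakdown and pool cleaning passed no more often than genes at large. Of 18 measured, 4 were higher (22.2%) and 3 lower (16.7%) at the adjusted p, against 22.9% and 23.2% of all genes. The median was 0.00, and 5 of the 18 were as dim as the bacterial controls in both genotypes. Upp1, uridine phosphorylase, which splits uridine, had the largest difference. It was at 6.95, 7.01 and 7.15 in WT and at 5.68, 5.73 and 5.67 in HDAC11-/- Tregs, a log2 value that fell by 1.34 (SE 0.06, adjusted p = 2.28e-05). Ampd2, an AMP deaminase, was called higher at 0.80 (adjusted p = 0.000180), but its other probe set gave -0.13 (adjusted p = 0.133 from limma). Xdh, which ends purine breakdown in urate, was lower at -0.55 (adjusted p = 0.000179), short of the fold threshold. Of 5 nucleoside transporters none was called, and Slc29a2 had the smallest adjusted p at -0.29 (adjusted p = 0.0480).

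Genes of the cell cycle moved with the members. Of 24 measured mitotic genes, 23 were called higher. Their median was 1.87, with a summed linear level of 3719 to 3847 on the WT arrays and 12840 to 13060 on the HDAC11-/- arrays. Of 28 genes of DNA synthesis, 16 were called higher, with a median of 0.63, 24 were higher and 2 lower at the adjusted p, and the summed level went from between 23990 and 24220 to between 34230 and 34250. The part of these changes in the results above was not tested. In a bulk fraction, more RNA per cell and more cells that hold the RNA cannot be told apart.

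The fraction carried T cell and Treg transcripts, but Foxp3 itself had no usable level, since its probe set was as dim as the bacterial controls in both genotypes. Other Treg genes such as Il2ra, Ctla4 and Tnfrsf18 were bright, and none of 9 Treg or 8 T cell markers was called in its brightest probe set. At the adjusted p alone, 2 Treg markers were higher and 2 lower, and 2 T cell markers were lower and none higher. The same held for 22.9% of all genes as higher and 23.2% as lower. Ctla4 was higher at 0.50 (adjusted p = 0.000269 from limma), and a dimmer probe set of Zap70 was called lower at -0.65. Hdac11 had log2 fold changes of -0.12 (adjusted p = 0.222) and -0.10 (adjusted p = 0.532) in its probe sets, and since their place relative to the deleted exons is unknown here, they check nothing. Markers of other cells differed between the genotypes. Of 9 B cell markers 5 were called lower, with a summed linear level of 1231 to 1295 in WT and 790.8 to 812 in HDAC11-/-. Among those called, Blnk and Cr2 were as dim as the bacterial controls in HDAC11-/-. Their bounds, at least 1.49-fold and 1.12-fold lower, lie under the 1.5-fold threshold. Of 8 dendritic cell markers 3 were called lower, all of MHC class II, with the list at 4271 to 4342 against 1849 to 1900. The other dendritic cell markers were mixed. Itgax (-0.39) and Zbtb46 (-0.26) were lower short of the fold threshold, Flt3 (0.11) and Xcr1 (-0.11) did not pass, and Ccr9 was higher at 0.23 (adjusted p = 0.026 from limma). Of 10 monocyte and macrophage markers 3 were called higher, at 369.2 to 384.9 against 446.2 to 494.5, with 4 within the background range in both genotypes. Those 3 calls used the deposited values. C1qb lay within that range in both genotypes, and C1qa and C1qc in WT, with bounds of at least 1.16-fold and 1.27-fold higher. Of 8 neutrophil markers 2 were called higher, at 202.8 to 221.9 against 298.2 to 315.9, with 3 within the background range in both genotypes. The called ones, S100a8 and S100a9, lay within it in WT, with bounds of at least 1.44-fold and 1.25-fold higher. Of 9 CD8 T and NK cell markers 1 was called lower, at 1913 to 2010 against 1760 to 1887, and of 5 erythroid markers none was called. The part of these other cells in the results above was not tested.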

How the data were processed

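RNA of 6 samples was amplified, labelled with biotin and hybridised by the authors, who normalized the arrays by RMA in the MAYDAY software and deposited log2 values, 1 per probe set and array. RMA sets all arrays to 1 distribution, so it assumes that most transcripts do not differ. Values were used as deposited, without a filter on dim probe sets. Which release of the probe definitions was used is not stated in the sources. After removal of 45 controls, 22626 probe sets were tested with limma 3.58.1 in R 4.3.3 (lmFit and eBayes, genotype as the only term), in place of the SAM of the methods, which was run as an alternative, with Benjamini-Hochberg adjustment across all of them. The platform annotation gave 1 symbol to 20380, several to 691 and none to 1555. A gene whose 3 arrays of a genotype all lay at or below the highest of 27 bacterial control probe sets on the same array is given as a bound against that level or its own, whichever is higher. Summed levels add the linear values of the brightest probe sets of a list. The number of arrays limits precision, with a median SD between arrays on the log2 scale of 0.09 for WT and 0.07 for HDAC11-/-. The procedure was also run on simulated independent arrays with few changed probe sets, unlike these data, so that run supports no result here.

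The members, the branches and the other lists were chosen with earlier results of these data known. Every member is named. Genes with a called probe set are given on every array, up to 3 others per branch with means and SDs, and the rest by fold change. Of the other pathway lists, called genes are named, or the one with the smallest adjusted p, and Phgdh, Ctps2, Xdh, Rrm2b and single markers were added after their values were seen. Alternatives were SAM, other variance models, array weights, a replicate block, other scales, filters, thresholds and probe set choices, and leaving out each array. Figures were drawn with matplotlib 3.10.9.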

Additional observations from a re-analysis of the deposited data

How the results depend on the processing

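Counts of called members were 8 higher and 1 lower by SAM, with array weights, an intensity trend or a stricter adjusted p. They were 9 and 1 scaled on bacterial controls, where Ada was added, 26 and 3 with no fold threshold, 4 and 0 at 2-fold, and 4 and 0 when limma's treat tested against 1.5-fold. Of the members past the adjusted p without a fold threshold, Tk2, Mthfd1, Cad, Nme2 and Adss did not pass by SAM, Cad, Nme2 and Adss did not pass on reference genes, and Adss (adjusted p = 0.0801) and Nme2 (adjusted p = 0.0627) did not pass limma with the replicate block. With the mean of all probe sets the counts of called members were 5 and 0, with 0 lower also with the dimmer probe sets left out or Tyms by its shared probe set. With 1 array left out these counts ran from 8 to 9 higher and stayed at 1 lower. Deviations of same-numbered arrays correlated at 0.23, -0.02 and 0.16. WT replicates 1 and 3 correlated best with their own number, and WT replicate 2 did not. With 3 arrays per genotype, these correlations cannot decide whether the shared replicate numbers pair the samples. The replicate block left the counts at 8 and 1 and moved the calls over all genes from 429 and 461 to 430 and 462.

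The median of the members was 0.23 scaled on reference genes, 0.34 on bacterial controls, 0.42 by probe sets without a suffix, 0.37 by the mean of probe sets, 0.35 with Tyms by its shared probe set, and 0.31 to 0.34 with 1 array left out. The deoxynucleotide branch had medians of 0.62 on reference genes, 0.86 without dim probe sets, 0.63 by probe sets without a suffix, 1.01 with the shared probe set of Tyms, and 0.64 to 0.75 with 1 array left out. Scaled on reference genes, the pyrimidine and purine synthesis branches were both at 0.23, salvage at 0.43 and folate at 0.28. Purine synthesis was at 0.33 on bacterial controls, 0.38 by the mean of probe sets and 0.29 to 0.32 with 1 array left out. Salvage was at 0.69 and folate at 0.47 by probe sets without a suffix, folate at 0.12 by the brightest on WT arrays, where Shmt1 is at -0.56, and the nucleoside diphosphate kinases at 0.28 by the mean.

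Signs of small differences turned. Mthfd2 was at -0.02 with array weights, -0.07 on reference genes, and -0.08 without WT replicate 3 or without HDAC11-/- replicate 1. Dhodh was at -0.03, -0.02 and -0.01 on reference genes and without those arrays. With 1 array left out, Mthfd2 ran from -0.08 to 0.1 and Dhodh from -0.02 to 0.11. Dtymk was at -0.03 on reference genes and -0.01 by probe sets without a suffix. Tyms turned to 1.01 by its shared probe set.

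A scale on the cre controls, added after the data were seen, raised every difference by their fall from 14.27 to 13.79. It gave 27 members called higher and 0 lower, where 3828 and 86 of all 12393 genes were called, a median of 0.79 beside 0.44 over all genes, and branch medians of 1.18, 0.79, 0.79, 0.99, 0.84 and 0.64 in the order of the report, with Tk2 at 0.27 and Samhd1 at 0.16. The cause of that fall was not tested. Over the other alternatives, single genes kept their direction and side of the threshold in 586 of 604 comparisons. Many of these could not change direction, so the count does not measure stability. SAM, the intensity trend and the replicate block keep the same fold changes, and the shared probe set of Tyms alters no other gene.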
